A study of Homo sapiens with 9 samples.

Results

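The NRF2 antioxidant and detoxification genes described here are 37 human genes, taken from a list of gene names. They comprise the regulators NFE2L2 (NRF2 itself), KEAP1 and SQSTM1, and 34 further genes. Apart from OSGIN1 and PIR, the products of these make glutathione, reduce thiols, supply NADPH, detoxify reactive compounds or handle haem and iron. Each gene was represented by a non-control array probe that carries a RefSeq transcript accession of that gene, and where several probes did, by the probe with the highest mean over the 9 arrays. A probe was found for 36 of the 37 members, among 21743 gene names on the array, and AKR1C2 had none. The members had 49 such probes in all, with more than 1 probe for 10 of them. For 35 members the chosen probe was well above background on all 9 arrays. The exception was NFE2L2, whose only probe never rose clearly above background, so that the mRNA of the central factor was not measured here.

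NRF2 is a transcription factor that binds the antioxidant response element in DNA as a partner of small MAF proteins. Its adaptor KEAP1 normally holds NRF2 in the cytoplasm and directs its ubiquitination and degradation, and oxidants or electrophiles that modify KEAP1 release it. A549, a human lung adenocarcinoma cell line, carries a KEAP1 mutation that impairs this control, so that NRF2 and its target genes are constitutively active in these cells.

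RNA was compared between parental A549 cells (passages P98, P98 and P99), OSK-A549-Colony cells (P106, P107 and P106) and OSK-A549-SN cells (the same passages as the Colony cells), with 3 single-colour arrays in each group. The Colony and SN cells both carried retroviral OCT3/4, SOX2 and KLF4 and were separated from each other at passaging. Colony cells were those that stayed attached as colonies after a short trypsin treatment, and SN cells were the spindle-shaped cells that came off into the supernatant. The parental cells carried no transgene and had fewer passages, so transduction and passage cannot be told apart in comparisons with them. All 3 groups share the KEAP1 mutation of A549. The arrays measure bulk RNA, so that fewer cells of a kind and less RNA per cell cannot be told apart.

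Levels are given as log2 intensity relative to the 75th percentile of the array, which lay between 217.5 and 270.6 intensity units. Between 25809 and 29317 of 50599 probes were detected per array. Replicates of a group correlated across 23762 probes with a Pearson r of 0.983 to 0.997, with no test because probes are not replicates. All 6 epithelial markers examined were well above background on every array, and 5 of 6 stromal markers were on none. Of the other markers, 2 of 5 endothelial genes and 3 of 4 leukocyte genes were well above background on all arrays of each group. Some of these markers moved with the groups. CDH1 (E-cadherin) fell in Colony cells relative to parental cells by 1.00 (SE 0.17, adjusted p = 0.0319), and KRT19 (keratin 19) differed across the groups by limma's F test (adjusted p = 0.0371), with Colony minus parental at 1.18 and Colony minus SN at 1.22. The log2 of the summed epithelial marker levels was 10.6 to 10.8 in parental cells, 10.5 to 10.6 in Colony cells and 10.6 to 10.9 in SN cells. All 3 tested endothelial markers had a Colony minus SN difference below 0, of -1.43 to -0.24, and none passed the test. Their SN minus parental differences were 0.24 to 1.19. The lowest Colony minus SN value was that of KDR, which was well above background on 1 array only. All 4 leukocyte markers had a Colony minus SN difference below 0, of -0.69 to -0.53, and none passed the test. The log2 of their summed levels was 3.38 to 4.13 in parental cells, 3.21 to 3.37 in Colony cells and 3.62 to 4.05 in SN cells. The part of these markers in the members' values was not tested. OSK-A549-SN replicate 3 was the only array on the second slide, and it held the lowest SN value for 29 of the 35 measured members. The part of the slide in the members' values was not tested, because the slide cannot be told apart from that array. A fit with slide as a block amounts to leaving the array out, and values without it are given below.

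The antioxidant response element has a core that reads TGACNNNGC, where N is any base. It was searched on both strands of RefSeq promoter windows (250 bases before to 50 after each annotated start, GRCh38.p14). The promoter table held 30 of the 37 members, and the core was found in at least 1 window of 14 of them (46.7%), against 16.1% of all 27305 genes in the table. By window, 15 of 44 windows of members (34.1%) held the core, against 13.3% of all 35116 windows. The core overlaps the AP-1 site TGACTCA when its free bases read TCA, as in ME1, GSTP1 and PIR. A match of letters is a description and no evidence of binding. The windows below were chosen to show members with different patterns across the groups. They lie wholly before the start, are given 5′ to 3′ on the strand of the gene, and have the core in capitals. For CYP4F11, GPX2, PGD and GCLM the core lies on the opposite strand, so the capitals begin with GC and end with GTCA.
TXNRD1, chr12:104215624-104215743, plus strand: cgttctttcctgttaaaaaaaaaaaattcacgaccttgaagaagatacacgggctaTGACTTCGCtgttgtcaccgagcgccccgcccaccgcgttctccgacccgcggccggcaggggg
CYP4F11, chr19:15934960-15935079, minus strand: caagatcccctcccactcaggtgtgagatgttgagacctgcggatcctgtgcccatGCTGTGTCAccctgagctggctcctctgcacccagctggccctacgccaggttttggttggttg
ME1, chr6:83431125-83431244, minus strand: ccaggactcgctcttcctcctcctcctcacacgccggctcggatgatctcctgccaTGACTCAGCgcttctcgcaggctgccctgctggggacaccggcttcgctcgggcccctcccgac
GPX2, chr14:64942804-64942923, minus strand: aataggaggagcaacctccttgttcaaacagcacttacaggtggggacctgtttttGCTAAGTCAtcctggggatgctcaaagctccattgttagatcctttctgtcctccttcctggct
PGD, chr1:10398814-10398926, plus strand: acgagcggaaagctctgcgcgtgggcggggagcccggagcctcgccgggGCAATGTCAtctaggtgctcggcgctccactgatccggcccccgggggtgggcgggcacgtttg
GCLM, chr1:93909431-93909550, minus strand: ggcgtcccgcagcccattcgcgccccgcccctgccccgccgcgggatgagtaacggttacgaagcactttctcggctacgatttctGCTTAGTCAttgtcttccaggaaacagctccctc
GSTP1, chr11:67583690-67583809, plus strand: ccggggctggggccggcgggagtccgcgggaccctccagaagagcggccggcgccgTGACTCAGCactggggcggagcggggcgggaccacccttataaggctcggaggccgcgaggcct
TXNRD1, ME1 and CYP4F11 were among the members with their highest values in Colony cells, described further below. GPX2 and PGD were lower in SN cells than in parental cells by the fitted values, and GCLM and GSTP1 showed no separation of the groups. The core was not found in the windows of SQSTM1, OSGIN1, NQO1, SRXN1, GCLC or AKR1C1. Elements outside the windows were not searched, so this does not show that these genes lack the element. SLC7A11, GSR, PRDX1, AKR1B10, CBR3, HMOX1 and FTH1 were not in the table.

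The first comparison asked how the members differ between Colony cells and the cells they came from. SQSTM1, OSGIN1 and NQO1 rose in Colony cells by 1.28, 1.27 and 0.55 on the log2 scale, and none of the 35 tested members fell (limma, Benjamini-Hochberg adjusted p below 0.05 over 30869 probes). These 3 members compare with a background of 4.29% of all probes called higher, and 0 members compare with 4.72% called lower. Without adjustment, 10 members were higher and 5 lower at p below 0.05, against 15.2% and 14.9% of all probes. The 3 Colony arrays lay above the 3 parental arrays for 15 members and below them for 6, where the background is 20.9% and 20.7% of all probes. The fitted difference was above 0 for 25 of 35 members, against 47.2% of all probes, with a median of 0.10 against -0.03. As each array was left out, these became 21 to 25 members and a median of 0.09 (without Colony replicate 2) to 0.17 (without parental replicate 1). Only SQSTM1 and OSGIN1 changed by more than 2-fold, against 1.71% of all probes for such calls in that direction and 1.99% in the other.

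These calls rested on few arrays. The calls of SQSTM1 and OSGIN1 were lost when parental replicate 2 or any 1 of the 3 Colony arrays was left out, with adjusted p of 0.0637 to 0.111 for SQSTM1 and 0.0670 to 0.112 for OSGIN1. NQO1 was lost without any array other than parental replicate 3, with adjusted p of 0.0629 to 0.175. Across these omissions the difference stayed between 1.14 and 1.38 for SQSTM1, between 1.12 and 1.38 for OSGIN1 and between 0.47 and 0.60 for NQO1. Without parental replicate 3, 7 members were called higher and 2 lower, against 7.72% and 6.04% of all probes. The call of NQO1 was also lost when probes were not filtered on detection (0.107), and all 3 calls with the replicate number as a block (0.118 to 0.160).

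The second comparison asked how Colony cells differ from SN cells, which carry the same transgenes. No member and no other probe passed the adjusted threshold among 31748 probes (limma, background 0% in each direction), the smallest adjusted p of a member being 0.105. Without adjustment, 10 members were higher in Colony cells and 0 lower, against 8.80% and 10.7% of all probes. The Colony arrays lay above the SN arrays for 18 of 35 members, against 13.5% of all probes, and below them for HMOX1 alone, against 17.3%. The fitted difference was above 0 for 31 members, against 41.9% of all probes, and the 4 exceptions were GCLM, AKR1C4, HMOX1 and TKT. The median difference was 0.22 for the members and -0.06 for all probes. Among the 23762 probes well above background on all arrays, a set chosen after the data were seen, 44.5% had a difference above 0 and 15.8% lay without overlap above the SN arrays. Without SN replicate 3, the fitted difference was above 0 for 25 members with a median of 0.13, 18 members lay without overlap above the SN arrays and 3 below, against 17.8% and 29.2% of all probes.

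The third comparison, of SN cells with parental cells, shares the parental arrays with the first and the SN arrays with the second. No member passed the adjusted threshold, against 0.798% of all 32223 probes called higher and 1.02% called lower. Without adjustment, 2 members were higher and 7 lower, against 11.2% and 10.4% of all probes. The SN arrays lay above the parental arrays for 4 members and below them for 8, against 16.8% and 15.2%. The fitted difference was above 0 for 15 members, against 57.3% of all probes, and below 0 for 20, with a median of -0.03 against 0.08 for all probes. The median was 0.039 with 18 members above 0 without SN replicate 3, and -0.087 with 13 above 0 without parental replicate 2, the extremes over the 6 omissions, so neither its size nor its sign was stable.

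**Figure D1:**
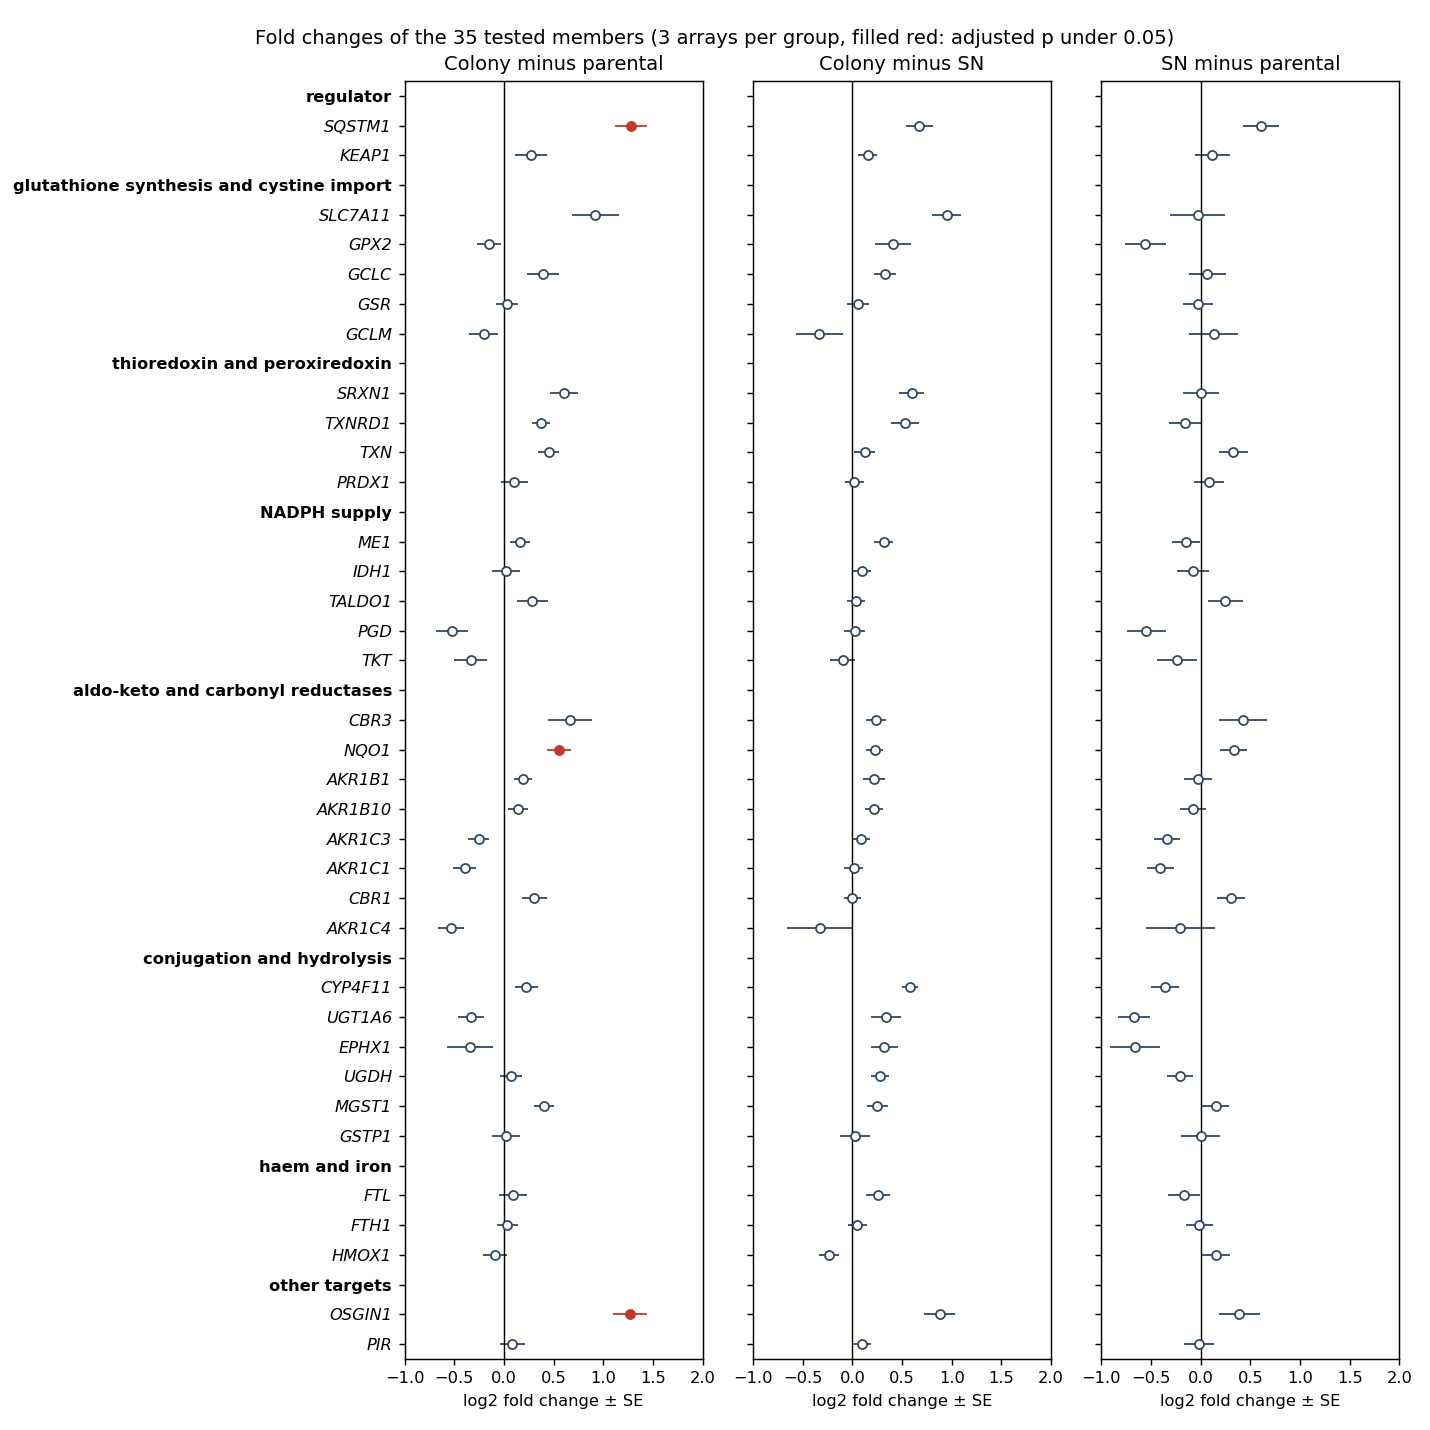
Log2 fold change of each of the 35 tested members in the 3 comparisons, with bars for the standard error (3 arrays per group) and members ordered by role. Filled red points mark an adjusted p below 0.05, reached by SQSTM1, OSGIN1 and NQO1 in Colony minus parental. In Colony minus SN, 31 of 35 points lie to the right of 0.

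Across all 3 groups, 4 of 35 members differed by limma's F test on all 9 arrays, against 11.4% of 33087 probes. They were SQSTM1 (adjusted p = 0.0121), OSGIN1 (0.0155), CYP4F11 (0.0328) and NQO1 (0.0371). SLC7A11 (0.0508), SRXN1 (0.0519) and UGT1A6 (0.0528) lay just outside the threshold. SQSTM1 passed in all 17 alternative settings, at adjusted p of 0.00137 to 0.0490. OSGIN1 was lost without Colony replicate 2 (0.0612) or Colony replicate 3 (0.0574). CYP4F11 was lost without any 1 of the Colony or SN arrays (0.0570 to 0.104), and NQO1 without any array other than parental replicate 3 or SN replicate 3 (0.0503 to 0.116). The replicate number as a block ended the F test calls of OSGIN1 (0.0555), CYP4F11 (0.0835) and NQO1 (0.105), no detection filter those of CYP4F11 (0.0741) and NQO1 (0.0851), and slide as a block that of CYP4F11 (0.0614).

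Counted over all 9 arrays at once, the 3 Colony arrays lay above all 6 other arrays for 14 of 35 members, against 6.69% of all probes, and below all of them for 0 members, against 6.64%. The 14 members were SQSTM1, OSGIN1, NQO1, SLC7A11, GCLC, SRXN1, TXNRD1, TXN, ME1, CBR3, AKR1B1, AKR1B10, CYP4F11 and MGST1. The SN arrays lay above all others for 0 members and below them for CYP4F11, EPHX1, GPX2 and UGDH, against 4.27% and 3.62% of all probes. The parental arrays lay above all others for AKR1C1, AKR1C3, PGD and UGT1A6 (background 10.0%) and below all others for SQSTM1, NQO1, TXN and CBR1 (background 11.1%). This count was added after the data were seen.

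**Figure D2:**
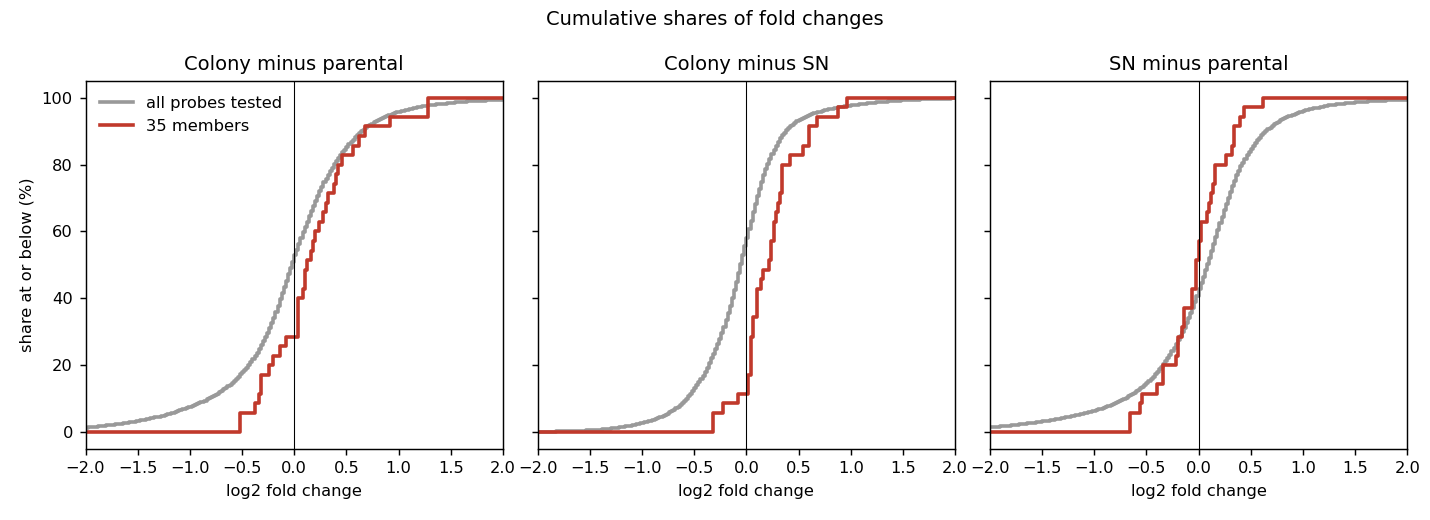
Cumulative share (%) of the 35 members (red) and of all probes tested (grey) at or below each log2 fold change, for the 3 comparisons. In Colony minus SN the red curve lies to the right of the grey one over most of its range, with medians of 0.22 and -0.06, and in SN minus parental the medians are -0.03 and 0.08.

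Members also varied less between replicates than probes in general. The median SD over arrays was 0.18 for the members and 0.25 for all probes in parental cells, 0.07 and 0.13 in Colony cells, and 0.15 and 0.20 in SN cells, where all probes include dimmer ones than the members. The widest member was SLC7A11 in parental cells, with an SD of 0.46, and AKR1C4 in SN cells, with an SD of 0.66. Relative to the parental mean, the median member stood at 0.13, 0.16 and 0.15 on the Colony arrays. It stood at 0.03, 0.02 and -0.18 on the SN arrays, and at 0.04, -0.15 and 0.11 on the parental arrays themselves. The 3 Colony medians were close to each other and above those of all other arrays, with parental replicate 3 just below them. The number of members above the parental mean ranked the arrays otherwise. It was 21, 25 and 22 on the Colony arrays, 22, 18 and 10 on the SN arrays, and 20, 6 and 26 on the parental arrays.

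**Figure D3:**
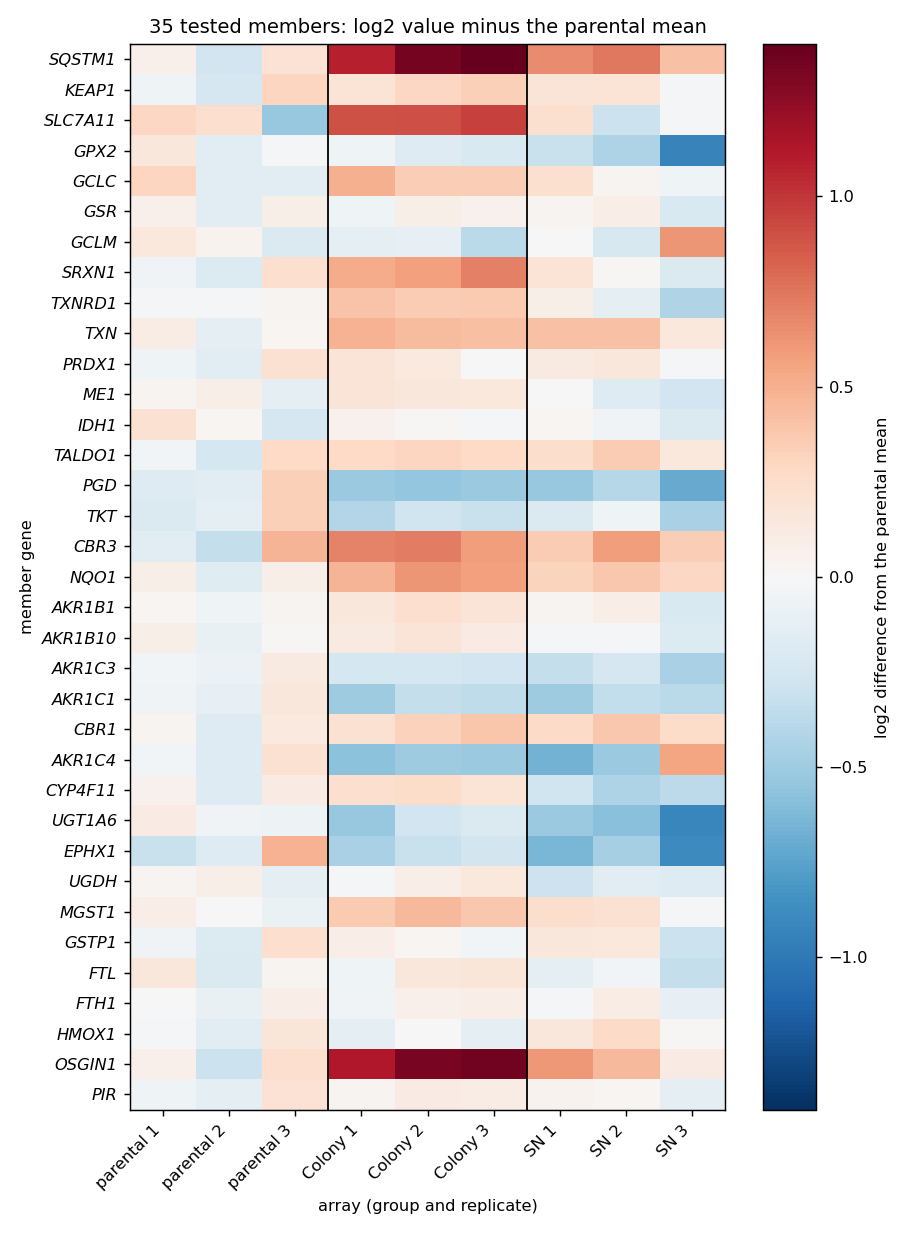
Each of the 35 tested members (rows, ordered by role) on the 9 arrays (columns), as the log2 value minus the mean of the 3 parental arrays. SQSTM1 and OSGIN1 are the darkest red rows in the Colony columns, and most rows of SN replicate 3 are bluer than in the other SN columns, as in the 29 members for which it was the lowest SN array.

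Among the regulators, SQSTM1, which encodes the autophagy receptor p62 that can bind KEAP1 and is itself an NRF2 target, had the largest fitted Colony minus parental difference of the members, closely followed by OSGIN1. Its log2 level was 6.53, 6.19 and 6.66 on the parental arrays, 7.55, 7.80 and 7.87 on the Colony arrays and 7.13, 7.20 and 6.87 on the SN arrays. The 3 groups did not overlap, with SN cells between the others. The Colony level was 2.43-fold the parental level (log2 difference 1.28, SE 0.17, adjusted p = 0.0221) and 1.60-fold the SN level (0.67, SE 0.14, adjusted p = 0.119). The SN level was higher than the parental level by 0.60 (SE 0.18, adjusted p = 0.138).

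KEAP1 had levels of 2.57, 2.40 and 2.93 in parental cells, 2.82, 2.92 and 2.97 in Colony cells and 2.81, 2.82 and 2.62 in SN cells. The parental range of KEAP1 covered most of the other values. Its Colony arrays lay just above its SN arrays, without overlap. Its Colony minus parental difference was 0.27 (SE 0.16, adjusted p = 0.312), and its Colony minus SN difference was 0.16 (SE 0.10, adjusted p = 0.414). As each array was left out, the former ranged from 0.16 (without parental replicate 2) to 0.42 (without parental replicate 3) and the latter from 0.09 (without SN replicate 3) to 0.20 (without Colony replicate 1).

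In glutathione synthesis and cystine import, SLC7A11, the light chain of the cystine and glutamate antiporter xCT, had the largest Colony minus SN difference of all members. Its level was 4.79, 4.73 and 3.97 in parental cells, 5.39, 5.40 and 5.45 in Colony cells and 4.72, 4.20 and 4.48 in SN cells. All Colony arrays lay above all others, and the parental and SN ranges overlapped. The Colony level was higher by 0.95 than in SN cells (SE 0.15, adjusted p = 0.105) and by 0.92 than in parental cells (SE 0.24, adjusted p = 0.0686). The latter difference fell to 0.65 (adjusted p = 0.0252) without parental replicate 3, the lowest parental value.

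GCLC, the catalytic subunit of glutamate-cysteine ligase, which makes the first intermediate of glutathione, had levels of 4.01, 3.55 and 3.55 in parental cells, 4.20, 4.05 and 4.05 in Colony cells and 3.93, 3.74 and 3.64 in SN cells. Colony values were the highest, by 0.40 over parental (SE 0.16, adjusted p = 0.166) and 0.33 over SN (SE 0.11, adjusted p = 0.208). GCLM, the modifier subunit of the same enzyme, did not share this order. Its level was 5.76, 5.66 and 5.41 in parental cells, 5.48, 5.50 and 5.24 in Colony cells and 5.61, 5.38 and 6.23 in SN cells, where SN replicate 3 was the highest of all arrays.

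GPX2, a selenium-dependent glutathione peroxidase, had levels of 7.17, 6.85 and 6.99 in parental cells, 6.95, 6.83 and 6.79 in Colony cells and 6.69, 6.57 and 6.07 in SN cells. All SN values lay below all others, with SN minus parental at -0.56 (SE 0.21, adjusted p = 0.197) and Colony minus SN at 0.41 (SE 0.18, adjusted p = 0.286). Without SN replicate 3 these were -0.37 and 0.23. GSR, which regenerates reduced glutathione, overlapped in all 3 groups by its chosen probe, with differences between -0.03 and 0.06. Its second probe lay higher on the Colony than on the SN arrays without overlap, by 0.21 (SE 0.13, adjusted p = 0.406).

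All 4 thioredoxin and peroxiredoxin members had positive Colony minus parental differences, and none passed the test. SRXN1, the sulfiredoxin that restores overoxidised peroxiredoxins, had levels of 5.80, 5.65 and 6.08 in parental cells, 6.37, 6.42 and 6.55 in Colony cells and 6.03, 5.87 and 5.65 in SN cells. Colony arrays stood above the other 6, by 0.60 over parental (SE 0.14, adjusted p = 0.0584) and by 0.60 over SN (SE 0.13, adjusted p = 0.124). Parental and SN cells differed by 0.004 (SE 0.18).

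TXNRD1, the thioredoxin reductase of the cytosol, had levels of 3.21, 3.19 and 3.26 in parental cells, 3.62, 3.57 and 3.58 in Colony cells and 3.30, 3.09 and 2.80 in SN cells. The Colony level was higher than the parental level by 0.37 (SE 0.09, adjusted p = 0.0584) and than the SN level by 0.53 (SE 0.14, adjusted p = 0.163). TXN, thioredoxin itself, had levels of 8.07, 7.83 and 7.99 in parental cells, 8.46, 8.41 and 8.38 in Colony cells and 8.38, 8.38 and 8.11 in SN cells. Both OSK groups lay above the parental arrays, by 0.45 for Colony cells (SE 0.11, adjusted p = 0.0579) and 0.33 for SN cells (SE 0.15, adjusted p = 0.268). PRDX1, a peroxiredoxin, overlapped in all 3 groups.

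None of the 5 members that supply NADPH passed a test. PGD, the phosphogluconate dehydrogenase of the pentose phosphate pathway, had levels of 7.30, 7.32 and 7.81 in parental cells, 6.96, 6.94 and 6.96 in Colony cells and 6.95, 7.08 and 6.77 in SN cells. The parental values were the highest. Colony minus parental was -0.52 (SE 0.16, adjusted p = 0.101) and SN minus parental was -0.55 (SE 0.19, adjusted p = 0.183). TKT, the transketolase of the same pathway, was lower than parental by the fitted values. The differences were -0.33 for Colony cells (SE 0.17, adjusted p = 0.243) and -0.24 for SN cells (SE 0.20, adjusted p = 0.520). Without parental replicate 3 they were -0.17 and -0.07.

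TALDO1, the transaldolase of that pathway, had a positive difference of 0.29 in Colony cells (SE 0.15, adjusted p = 0.274). Without parental replicate 2 it was 0.16. ME1, the cytosolic malic enzyme, had levels of 1.66, 1.70 and 1.50 in parental cells, 1.81, 1.78 and 1.77 in Colony cells and 1.62, 1.44 and 1.36 in SN cells. Its Colony values were the highest, by 0.16 over parental (SE 0.10, adjusted p = 0.329) and by 0.31 over SN (SE 0.10, adjusted p = 0.194). IDH1, the cytosolic isocitrate dehydrogenase, overlapped in all groups with differences between -0.08 and 0.10.

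Among the quinone, carbonyl and aldo-keto reductases, NQO1, the quinone reductase often used as the marker of NRF2 activity, had levels of 3.21, 2.96 and 3.21 in parental cells, 3.60, 3.74 and 3.70 in Colony cells and 3.44, 3.50 and 3.42 in SN cells. The groups did not overlap, in the same order as for SQSTM1. NQO1 rose in Colony cells by 0.55 (1.47-fold, SE 0.12, adjusted p = 0.0462), and its SN minus parental difference was 0.33 (SE 0.13, adjusted p = 0.229). Its Colony minus SN difference was 0.22 (SE 0.08, adjusted p = 0.234).

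CBR3, a carbonyl reductase, had levels of 0.20, 0.02 and 0.82 in parental cells, 1.04, 1.06 and 0.93 in Colony cells and 0.70, 0.93 and 0.69 in SN cells. Its Colony minus parental difference of 0.67 (SE 0.22, adjusted p = 0.115) carried the wide spread of the parental arrays. CBR1, its paralog, was higher than parental by 0.31 in Colony cells (SE 0.12, adjusted p = 0.169) and by 0.30 in SN cells (SE 0.14, adjusted p = 0.278), with no overlap in either comparison.

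None of the 5 measured aldo-keto reductases passed a test. AKR1B1 and AKR1B10, which reduce aldehydes and retinaldehyde, had their highest values in Colony cells. AKR1B10 had levels of 9.63, 9.44 and 9.56 in parental cells, 9.67, 9.73 and 9.66 in Colony cells and 9.53, 9.53 and 9.35 in SN cells. Its Colony minus SN difference was 0.22 (SE 0.09, adjusted p = 0.265), as was that of AKR1B1 (SE 0.11, adjusted p = 0.325).

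AKR1C1, a hydroxysteroid dehydrogenase, had levels of 9.27, 9.20 and 9.47 in parental cells, 8.82, 8.98 and 8.95 in Colony cells and 8.82, 8.97 and 8.93 in SN cells. Both OSK groups lay below the parental arrays and overlapped each other, with differences from parental of -0.39 (SE 0.12, adjusted p = 0.0917) and -0.41 (SE 0.14, adjusted p = 0.169). The second AKR1C1 probe gave -0.57 (SE 0.13, adjusted p = 0.0571) for Colony cells and -0.73 (SE 0.14, adjusted p = 0.0705) for SN cells. AKR1C3 followed the same order, with differences of -0.26 (SE 0.10, adjusted p = 0.162) and -0.34 (SE 0.13, adjusted p = 0.217). The AKR1C genes are near-identical in sequence, so their probes may share signal, and AKR1C2 was not measured separately.

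AKR1C4 had levels of 5.84, 5.69 and 6.09 in parental cells, 5.29, 5.38 and 5.35 in Colony cells and 5.21, 5.36 and 6.43 in SN cells. SN replicate 3 stood apart from the other 2 SN arrays, and without it the Colony minus SN difference of -0.32 turned to 0.06. The second AKR1C4 probe ranged from -3.27 to -1.85 over the arrays, with a Colony minus parental difference of 0.23 where the chosen probe gave -0.53 (SE 0.13, adjusted p = 0.0636), so the probes disagreed in direction.

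**Figure D4:**
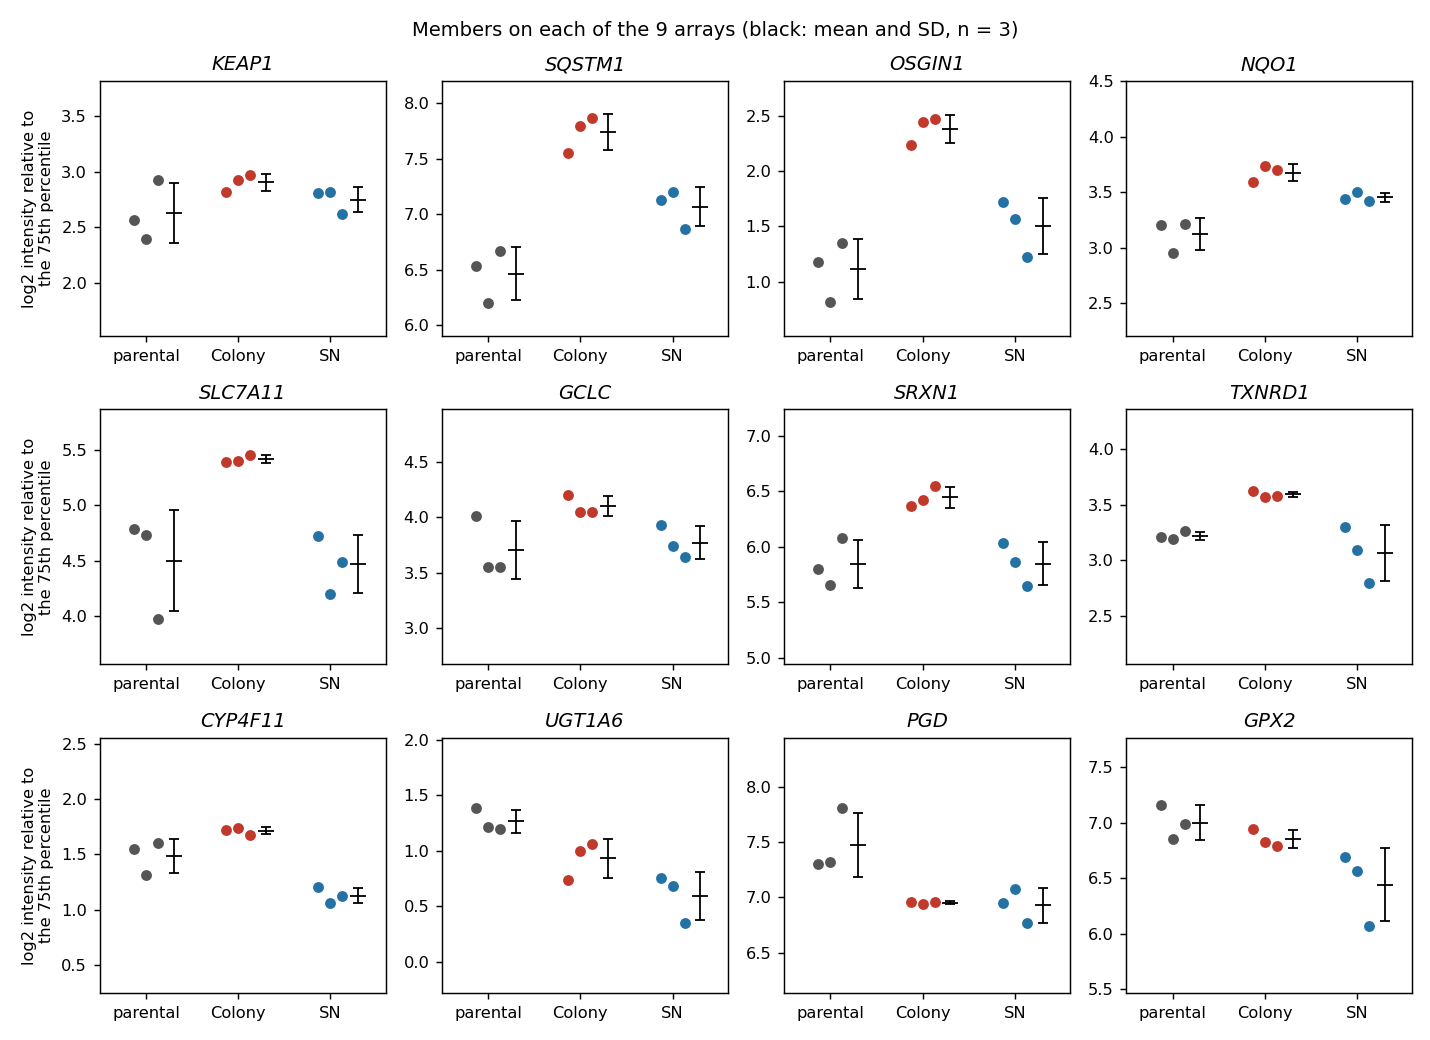
Log2 intensity relative to the 75th percentile of the array for 12 members on each of the 9 arrays (points), with the mean and SD of each group (black, n = 3) and the same span on each vertical axis. Colony values stand above all others for SQSTM1, OSGIN1, NQO1, SLC7A11, GCLC, SRXN1, TXNRD1 and CYP4F11, while UGT1A6 and PGD are highest in parental cells and GPX2 lowest in SN cells.

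All 6 conjugation and hydrolysis members had a positive Colony minus SN difference, and none passed the test. CYP4F11, a cytochrome P450 that hydroxylates fatty acids and vitamin K, had levels of 1.55, 1.31 and 1.60 in parental cells, 1.72, 1.74 and 1.68 in Colony cells and 1.20, 1.06 and 1.12 in SN cells. The groups did not overlap. It differed across the groups by the F test given above. Its Colony level was higher than the SN level by 0.58 (1.50-fold, SE 0.08, adjusted p = 0.105) and than the parental level by 0.23 (SE 0.12, adjusted p = 0.251). The second CYP4F11 probe gave a Colony minus SN difference of 0.38 (SE 0.12) and a Colony minus parental difference of -0.15 (SE 0.16), so the probes disagreed on the latter.

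UGT1A6, a glucuronosyltransferase for small phenols, had levels of 1.39, 1.21 and 1.20 in parental cells, 0.73, 1.00 and 1.06 in Colony cells and 0.75, 0.69 and 0.35 in SN cells. By the chosen probe the parental values were the highest, with SN minus parental at -0.67 (SE 0.16, adjusted p = 0.0943) and Colony minus parental at -0.34 (SE 0.13, adjusted p = 0.156). The second UGT1A6 probe gave -0.56 (SE 0.13, adjusted p = 0.0901) for SN minus parental and -0.17 (SE 0.16, adjusted p = 0.501) for Colony minus parental, where its Colony and parental arrays overlapped. UGT1A transcripts share their common exons, so a probe there would read several of them.

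EPHX1, the microsomal epoxide hydrolase, had levels of 3.29, 3.41 and 4.09 in parental cells, 3.14, 3.28 and 3.33 in Colony cells and 2.95, 3.13 and 2.71 in SN cells. SN values lay below all others. SN minus parental was -0.66 (SE 0.25, adjusted p = 0.208), and it was smallest, at -0.42, without parental replicate 3, the highest parental value. UGDH, which makes UDP-glucuronate for glucuronidation, was lower in SN than in Colony cells by 0.28 (SE 0.09, adjusted p = 0.197).

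MGST1, a membrane-bound glutathione transferase, had levels of 7.11, 7.01 and 6.92 in parental cells, 7.38, 7.47 and 7.39 in Colony cells and 7.26, 7.23 and 6.99 in SN cells. Colony values were the highest, by 0.40 over parental (SE 0.10, adjusted p = 0.0640) and by 0.25 over SN (SE 0.10, adjusted p = 0.268). GSTP1, the cytosolic glutathione transferase pi, overlapped in all groups, with fitted differences of 0.02 for Colony minus parental (SE 0.14) and 0.02 for Colony minus SN (SE 0.15).

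None of the 3 haem and iron members passed a test. HMOX1, the inducible haem oxygenase, had levels of 6.88, 6.74 and 7.06 in parental cells, 6.75, 6.89 and 6.76 in Colony cells and 7.06, 7.16 and 6.91 in SN cells. It was the member whose Colony arrays lay below all SN arrays, with a Colony minus SN difference of -0.24 (SE 0.10, adjusted p = 0.272). Its Colony minus parental difference was -0.09 (SE 0.12, adjusted p = 0.634). As each array was left out, the latter ranged from -0.17 (without parental replicate 2) to -0.009 (without parental replicate 3). FTL and FTH1, the light and heavy chains of ferritin, overlapped in all comparisons by their chosen probes. Their Colony minus SN differences were 0.26 (SE 0.12, adjusted p = 0.303) and 0.05 (SE 0.10, adjusted p = 0.788). A second FTL probe lay higher on the Colony than on the SN arrays without overlap, by 0.27 (SE 0.11, adjusted p = 0.251), and a further one gave 0.16 with overlap. The other FTH1 probes gave 0.03, -0.08 and -0.10, with overlap, so the FTH1 probes disagreed in direction. Both ferritin genes have many processed pseudogenes, whose transcripts their probes may also read.

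Of the remaining targets, OSGIN1, an oxidative stress-induced growth inhibitor, had levels of 1.18, 0.81 and 1.35 in parental cells, 2.23, 2.44 and 2.47 in Colony cells and 1.72, 1.56 and 1.22 in SN cells. Its Colony values were far above the others, while parental and SN values overlapped. OSGIN1 rose in Colony cells over parental cells by 1.27 (2.41-fold, SE 0.17, adjusted p = 0.0233). Its Colony minus SN difference was 0.88 (1.84-fold, SE 0.16, adjusted p = 0.110), and its SN minus parental difference was 0.39 (SE 0.21, adjusted p = 0.342). The latter was 0.24 without parental replicate 2. PIR, an iron-binding nuclear protein, overlapped in all groups with differences between -0.02 and 0.10.

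The partners and regulators of NRF2 outside the 37 genes, such as the small MAF proteins, BACH1 and related CNC factors, were read from a list of 18 genes, 16 of them tested. In Colony minus parental 13 of the 16 had a difference above 0, against 47.2% of all probes, with a median of 0.25 against -0.03. The Colony arrays lay above the parental arrays for 9 and below them for 2, against 20.9% and 20.7% of all probes. None passed the test in a comparison of 2 groups, where Colony minus parental had 4.29% of all probes called higher and 4.72% lower. By the F test 1 of the 16 passed, against 11.4% of all probes. This was NFE2L3, a factor related to NRF2, which passed narrowly. NFE2L3 was higher in Colony than in parental cells by 0.64 (SE 0.15, adjusted p = 0.0580), and MAFF, a small MAF protein, was higher in Colony than in SN cells by 0.47 (SE 0.11, adjusted p = 0.139). BACH1, the repressor that competes for the same element, had a Colony minus SN difference of 0.55 (SE 0.17, adjusted p = 0.197). MAFK, another small MAF protein, had the lowest Colony minus parental difference of the list, at -0.42 (SE 0.13, adjusted p = 0.0948), and NFE2, a CNC factor, had the lowest Colony minus SN difference, at -0.51 (SE 0.41, adjusted p = 0.509).

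Of 37 other NRF2 targets, 34 were tested. SLC3A2 and JAKMIP3 rose in Colony cells over parental cells, where 4.29% of all probes were called higher, and none fell, where 4.72% were called lower. The fitted difference was above 0 for 13 of the 34 genes and below 0 for 21. The Colony arrays lay above the parental arrays for 5 genes and below them for 9, against 20.9% and 20.7% of all probes. SLC3A2, the heavy chain that pairs with SLC7A11 in the antiporter xCT, had levels of 4.51, 4.25 and 4.47 in parental cells, 5.24, 5.25 and 5.37 in Colony cells and 4.99, 4.95 and 4.65 in SN cells. It rose by 0.87 in Colony cells (SE 0.12, adjusted p = 0.0231), a call lost without parental replicate 2 (0.0712) or any 1 of the Colony arrays (0.0759 to 0.112). JAKMIP3 rose by 0.71 (SE 0.13, adjusted p = 0.0358), and 5 of the 6 omissions ended that call, as did no detection filter (0.0772). The replicate number as a block ended both calls (0.121 and 0.140). The mean level of JAKMIP3 was 0.75 in parental cells, 1.45 in Colony cells and 1.50 in SN cells, so its level was similar in both OSK groups. In the other direction, GSTM3, a glutathione transferase of the mu class, had the lowest Colony minus parental difference of the list, at -0.95 (SE 0.24, adjusted p = 0.0634). Its mean level was 2.19 in parental cells, 1.24 in Colony cells and 1.22 in SN cells. The list's median was -0.11 for Colony minus parental and 0.03 for Colony minus SN, where the members' medians were 0.10 and 0.22 and those of all probes -0.03 and -0.06. The Colony arrays lay above the SN arrays for 13 of the 34 genes and below them for 2, against 13.5% and 17.3% of all probes. By the F test SLC3A2 (adjusted p = 0.0181), GLRX (0.0293), TSPAN7 (0.0367) and GSTM3 (0.0436) differed across the groups, against 11.4% of all probes.

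Of 20 other antioxidant enzymes, which are not counted as NRF2 targets here, 17 were tested, and GPX1, GLRX2 and GLRX3 rose in Colony cells over parental cells, against 4.29% of all probes. In that comparison 13 of the 17 had a difference above 0, against 47.2% of all probes, with a median of 0.19 against -0.03. The Colony arrays lay above the parental arrays for 8 and below them for 1, against 20.9% and 20.7% of all probes. The differences were 0.68 for GPX1, a glutathione peroxidase (SE 0.15, adjusted p = 0.0482), 0.63 for GLRX2, a glutaredoxin (SE 0.12, adjusted p = 0.0367), and 0.61 for GLRX3, a further glutaredoxin (SE 0.12, adjusted p = 0.0391). Each of these calls was lost on leaving out 4 or 5 of the 6 arrays in turn, with no detection filter (0.0833 to 0.0986) and with the replicate number as a block (0.138 to 0.139), and those of GLRX2 and GLRX3 with quantile normalization (0.0561 and 0.0557). Against SN cells the same genes differed by 0.02, 0.04 and -0.19, and none passed the test.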

How the data were processed

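RNA from 9 samples was hybridised by the authors to Agilent SuperPrint G3 human single-colour arrays. The deposited intensity of each spot, per the file headers, was background-subtracted by Agilent Feature Extraction 11.5.1.1 and not scaled between arrays. A deposited log2 table holds the same values shifted by a constant per array (100% of probes within 0.001). Here log2 intensity was taken, control and outlier-flagged spots were left out, replicate spots were averaged per probe, and each array was centred on its 75th percentile. No spot was saturated. The precision is limited by 3 arrays per group. The array annotation uses hg19 and the promoter table GRCh38.p14, so probe coordinates are not given.

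Groups were compared with limma 3.58.1 in R 4.3.3 (lmFit, eBayes), each pair on its 6 arrays with every probe seen on 1 or more of these, and by the F test on all 9, with Benjamini-Hochberg adjustment over all probes. Detection on an array required 0.5 or more of a probe's spots to be above background. The study's methods give 3 independent transduction experiments, and the labels do not pair the groups. Same-numbered Colony and SN samples share a passage number. In the study's protocol, SN cells come off the dish on which the colonies remain, so such samples may come from the same dish. The labels do not state this, and the numbers were not used as pairs in the main fits. The members and gene lists were chosen with earlier results of these data known. Members with values given in full are those past a test, the largest differences of each comparison, KEAP1, and others chosen after their values were seen. The alternatives were normexp background correction (on median brightness with an offset of 50, since mean brightness was not in the scanner output), quantile normalization, another scaling, 2 detection filters, slide and replicate as blocks, all 9 arrays in 1 fit, the deposited table, the mean of all probes of a gene, and leaving out each array. The tests were checked on simulated data with shifts larger than any member difference reported here. That check does not show how often differences of the reported sizes would be found. Promoters were searched with Python 3.11.15.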

Additional observations from a re-analysis of the deposited data

How the results depend on the processing

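Over the 35 members and 3 comparisons, 25 of 105 differences took the other sign in 1 or more settings, none of them called, the largest being AKR1C4 in Colony minus SN. Leaving out 1 array moved 64 of the 105 by over 1.5 times or across 0. For the genes named by rule, 20 recomputed values had the other sign. In Colony minus SN, GPX1 turned to -0.013 with normexp and -0.109 with slide as a block, and ranged from -0.109 to 0.094 as each array was left out. JAKMIP3 ranged from -0.233 to 0.0912 in this way, and PGD turned to -0.0594 with slide as a block and ranged from -0.0594 to 0.0969. In SN minus parental, SLC7A11 turned to 0.0276 with normexp and ranged from -0.295 to 0.112 as each array was left out. SRXN1 turned to -0.0233 with normexp and with the other scaling and to -0.0991 with quantile normalization, and ranged from -0.0914 to 0.122.

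Counts of calls moved more, and the cause was not tested. Normexp gave 13 members of 5022 probes past the F test, 8 higher and 3 lower in Colony minus parental (7.35% and 6.50% of all probes, 4275 in all), 5 higher in Colony minus SN (1.04%, 546 in both directions), and 1 higher and 2 lower in SN minus parental (2.19% and 2.75%, 1594 in all). Quantile normalization gave 9 of 4128 past the F test, 5 higher and 2 lower in Colony minus parental (5.37% and 5.04% of all probes), and 7 members of SN above parental cells without overlap (20% of members, 17.0% of all probes). A filter asking for detection on all arrays of a group gave 10 of 5820 past the F test, 8 higher and 1 lower in Colony minus parental (9.91% and 10.4% of probes, 5199 in all), 3 higher in Colony minus SN (0.987%, 418 in both directions), and 1 lower in SN minus parental (4.52%, 2090 in both directions). No filter gave 2 of 1978 past the F test, and 678 and 215 probes in the comparisons with parental cells. All 9 arrays in 1 fit gave 6 members higher in Colony minus parental (6.96% of probes, 4602 in both directions), 2 probes in Colony minus SN and 1 member lower in SN minus parental (4.60%, 3021 in both directions). The mean of all probes of a gene gave 6 members higher in Colony minus parental, against 6.53% of 16422 genes, and 0 members but 48 genes higher and 25 lower in Colony minus SN. Slide as a block gave 187 probes in SN minus parental.

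With the replicate number as a block, which the labels do not tie to shared material, 1 member of 1194 probes passed the F test, and 0 members and 0 probes passed in Colony minus parental, 0 of them over 2-fold, or in SN minus parental. The F test left SQSTM1. In Colony minus SN the replicate block gave 0 members and 0 probes, as without it. Deviations from the group means correlated between same-numbered Colony and SN arrays with a Pearson r of 0.239, 0.0731 and 0.138. Every one of these arrays correlated best with its own number. The study's protocol allows such pairs, and the labels do not state them. Between same-numbered arrays, r ranged from -0.0529 to -0.00698 for Colony and parental and from -0.196 to 0.150 for SN and parental.

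Leaving out 1 array at a time gave 1 to 7 members and 986 to 3980 probes past the F test. In Colony minus parental it gave 0 to 7 members higher, 0 to 2 lower, 0 to 2 over 2-fold and 0 to 4182 probes. In SN minus parental it gave 0 to 190 probes and 4 to 10 members above without overlap, the 10 standing against 29.6% of all probes. In Colony minus SN it gave 1 to 3 members below without overlap, the 3 against 29.2% of all probes. The Colony minus SN difference was above 0 for 25 to 31 of 35 members over all settings. With 3 arrays per group, small differences are not resolved, and a dim probe such as that of NFE2L2 gives no level.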
